A study of Rattus norvegicus with 18 samples.

Results

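H9C2, a cell line derived from embryonic rat heart, was exposed to short electric pulses and its messenger RNA was sequenced. The comparison described here is between ES10 cells, which received 10 pulses of 100 µs at 1500 V/cm, and NC cells, which received no treatment. PE, an agent that the labels abbreviate without spelling it out, was absent from both groups, and no allele or transgene is named for either. The comparison holds the 6 samples labelled ES10 or NC, 3 in each group, of 18 samples in the series, and every gene of the deposited table was compared between them. The other samples are cells given 50 pulses (ES50) or kept for 48 h with 50 µmol/L PE, alone (P), with 10 pulses (P_ES10) or with 50 pulses. The stated subject of the series is the effect of microsecond pulsed fields on apoptosis and function of cardiomyocytes.

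A strong, brief electric field opens pores in the plasma membrane, so that ions and small molecules cross it until the membrane reseals. Cells under such stress commonly draw on a few transcriptional programmes: HSF1 induces chaperones that refold proteins, NRF2 induces enzymes that remove oxidants and degrade heme, SREBP2 induces the genes that make and import cholesterol, and kinase signalling induces immediate early genes such as Fos, Egr1 and Myc. The mitochondrial genome codes for a small set of subunits of the respiratory chain, and its transcripts are made and degraded apart from those of the nucleus.

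Depth ranged from 14017831 to 16049853 gene reads per library, as worked back from the FPKM values (fragments per kilobase of gene, scaled by a term per library). That term was not the total of these reads. It was 1.62 to 1.67 times the total in NC, 1.60 to 1.61 in ES10, 1.77 to 1.79 in P and 1.66 to 1.67 in P_ES10. What it counts was not tested. In NC and ES10, 10927 to 10989 genes reached an FPKM of 1. Replicate libraries correlated at 0.985 to 0.987 across genes on the log2 scale in both groups. The labels only number the replicates, so the p-values rest on a spread among libraries that could be technical. The labels give the cell type as myocardium. Of 8 markers of adult cardiomyocytes 3 passed the filter on low values, led by Tnnt2, a troponin of the sarcomere, at 11.3, 12.2 and 12.7 FPKM in the NC and 11.2, 14.4 and 11.6 FPKM in the ES10 libraries, while Myh6, Actc1, Ryr2, Myl7 and Nppa did not pass. Markers of endothelial, epithelial and neural cells summed to at most 1.27 FPKM per list in any of the 6 libraries, and the 7 leukocyte markers summed to 2.09 to 2.57 FPKM in NC and 3.71 to 3.99 FPKM in ES10. Ptprc and Adgre1, which define leukocytes and macrophages, were at 0 in all 6 libraries. Of the markers of mesenchymal cells, 7 of 9 for fibroblasts (2424 to 2510 FPKM in NC and 2503 to 2799 FPKM in ES10) and 8 of 8 for smooth muscle (2223 to 2411 and 2338 to 2438 FPKM) passed, as did 4 of 8 for skeletal myoblasts (147 to 149 and 158 to 162 FPKM). Pdgfra and Dcn of the fibroblast list did not pass, nor did Myog, Myf5, Chrna1 and Pax7 of the myoblast list. Pax7 was at 0 in all 6 libraries. Single genes led these sums, with means of 1501 FPKM for Col1a1, 1413 FPKM for Acta2 and 75.9 FPKM for Cdh15. The part of any other cell type in the results was not tested. In bulk RNA, fewer cells of a type and less RNA per cell cannot be told apart.

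A gene was tested if 3 or more of the 6 libraries reached an FPKM of 1, which left 11041 genes. Of these, 2334 (21.1%) differed at an adjusted p under 0.05 by limma on log2(FPKM + 1), and these are the genes called below. Of the tested genes 1573 (14.2%) were called higher and 761 (6.89%) were called lower in ES10. Most differences were small. The median log2 difference was 0.29 for the genes called higher and -0.30 for those called lower, and 28 genes rose and 7 fell at least 2-fold on this scale. In all 2334 called genes the 3 ES10 libraries lay outside the range of the 3 NC libraries, which was so for 41.5% of all tested genes. The balance of directions depends on how the libraries are scaled. Of the called genes 67.4% were higher as deposited, 54.6% after scaling to total reads, 52.96% after quantile normalization, 52.2% by limma-voom on the recovered reads and 34.0% after scaling to reads on nuclear genes. In all 4 of these scalings 881 of the 1573 higher and 717 of the 761 lower genes kept their call.

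**Figure D1:**
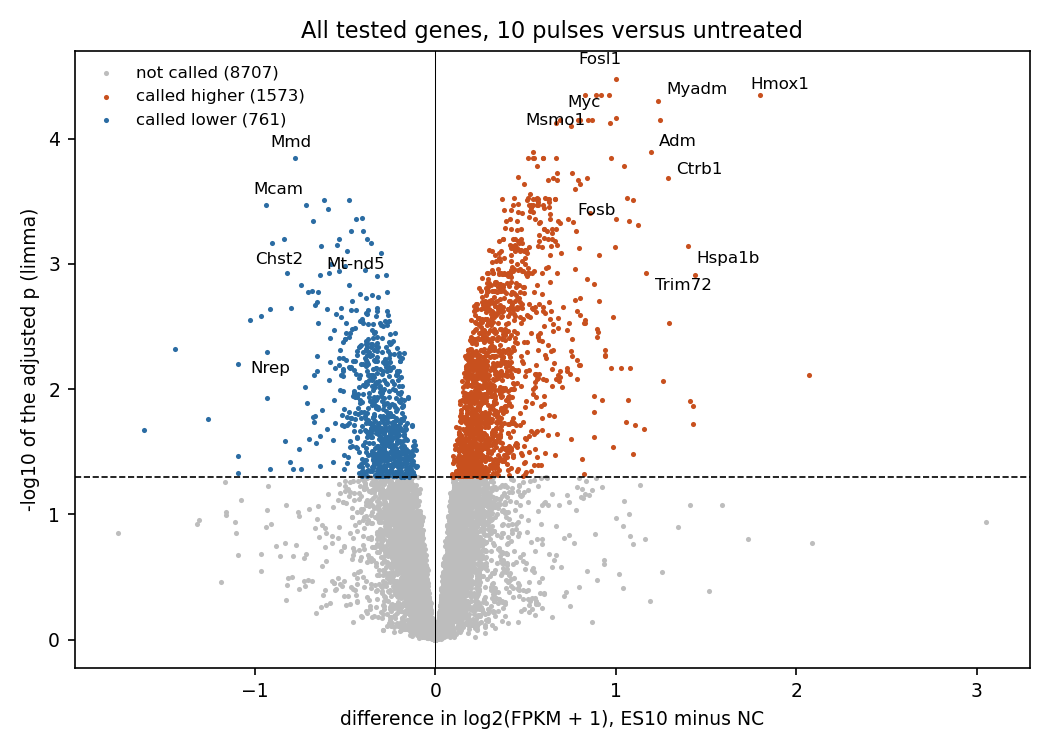
Difference in log2(FPKM + 1) between ES10 and NC (horizontal axis) against -log10 of the adjusted p from limma (vertical axis) for 11041 genes, 1 point per gene. The 1573 genes called higher lie above the dashed line of adjusted p 0.05 on the right and the 761 called lower on the left, with Hmox1 at 1.80 far to the right.

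Hmox1 (chromosome 19, 14508616 to 14515456, Rnor 6.0), which codes for the heme-degrading enzyme heme oxygenase 1, had the largest increase of a called gene on the log2(FPKM + 1) scale after Uchl3. It read 326, 321 and 341 FPKM in the NC libraries and 1041, 1185 and 1229 FPKM in the ES10 libraries, a log2 difference of 1.80 ± 0.063 (standard error, SE) at an adjusted p of 4.47e-05 (limma). Fosl1, a FOS-related subunit of the AP-1 transcription factor, had the smallest adjusted p of all genes, 3.33e-05, and went from 103, 104 and 103 FPKM to 204, 206 and 212 FPKM. In both genes the lowest ES10 library was well above the highest NC library. Myadm, a membrane protein of the myelin and lymphocyte family, read 66.7, 61.2 and 63.9 FPKM in NC and 157, 154 and 144 FPKM in ES10 (log2 difference 1.24 ± 0.046). Adm, the vasodilator peptide adrenomedullin, read 12.3, 11.7 and 12.3 FPKM and 27.1, 28.5 and 31.4 FPKM (1.19 ± 0.059). Emp1, a membrane protein of the PMP22 family, went from 128, 119.9 and 114 FPKM to 248, 239.7 and 226 FPKM, and Dot1l, a histone H3 lysine methyltransferase, from 125, 132 and 124 FPKM to 228, 236 and 223 FPKM. These 4 genes, like all genes called higher, were higher in every ES10 library than in every NC library.

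Several genes that were low in untreated cells were also among the largest increases. Trim72, a muscle protein that seals wounds in the plasma membrane, went from 1.11, 1.28 and 0.944 FPKM to 3.14, 3.80 and 4.33 FPKM (1.17 ± 0.12), which is 55 to 81 reads per NC library and 192 to 263 reads per ES10 library. Pygm, the muscle glycogen phosphorylase, went from 1.94, 1.95 and 1.62 FPKM to 4.95, 5.22 and 5.00 FPKM. Ctrb1, a pancreatic chymotrypsinogen, went from 7.60, 8.21 and 8.80 FPKM to 19.7, 23.4 and 21.3 FPKM. Hap1, a partner of huntingtin known from neurons, rose by log2 1.12 ± 0.087. Serpinb2, an inhibitor of plasminogen activators, rose from 2.24, 1.78 and 1.75 FPKM to 4.62, 5.13 and 4.71 FPKM. The highest log2 difference of a called gene, 2.07 for Uchl3, a ubiquitin hydrolase, rests on 0, 9 and 5 reads in NC and 136, 35 and 73 reads in ES10, and it lost its call in the fits of 12 and of 18 libraries. Reads of Rbm39, the splicing factor with the largest decrease, ranged from 90 to 367 within NC and from 21 to 47 in ES10, and its call was lost without NC replicate 2, ES10 replicate 1 or ES10 replicate 2. Reads of these 2 genes may be shared with near-identical copies.

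The 7 genes that fell at least 2-fold on the log2(FPKM + 1) scale were Rbm39 and 6 small RNA genes or gene models without a descriptive symbol. Named protein-coding genes other than Rbm39 fell by less on that scale, which understates the change of low genes. Cx3cl1, the chemokine fractalkine, read 2.04, 1.57 and 1.60 FPKM in NC and 0.337, 0.321 and 0.542 FPKM in ES10, a log2 difference of -0.97 ± 0.12. Mcam, the cell adhesion molecule CD146, fell from 9.30, 9.66 and 9.94 FPKM to 5.01, 4.27 and 4.41 FPKM (-0.94 ± 0.064, adjusted p = 0.000338, limma). Nrep, a regulator of regeneration in neurons, fell from 27.6, 24.5 and 25.5 FPKM to 16.0, 10.3 and 13.5 FPKM. All 3, like all genes called lower, were lower in every ES10 library than in every NC library. Chst2, a sulfotransferase that modifies carbohydrates, Mmd, a membrane protein of monocytes and macrophages, and Gas7, a growth arrest gene, differed by -0.90 ± 0.077, -0.78 ± 0.04 and -0.80 ± 0.095. Cyp26b1, which degrades retinoic acid, read 2.42, 2.46 and 2.25 FPKM in NC and 1.16, 1.27 and 1.03 FPKM in ES10. Prrx2, a homeobox factor of mesenchyme, went from 7.04, 7.31 and 7.16 FPKM to 4.05, 4.30 and 3.98 FPKM.

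**Figure D2:**
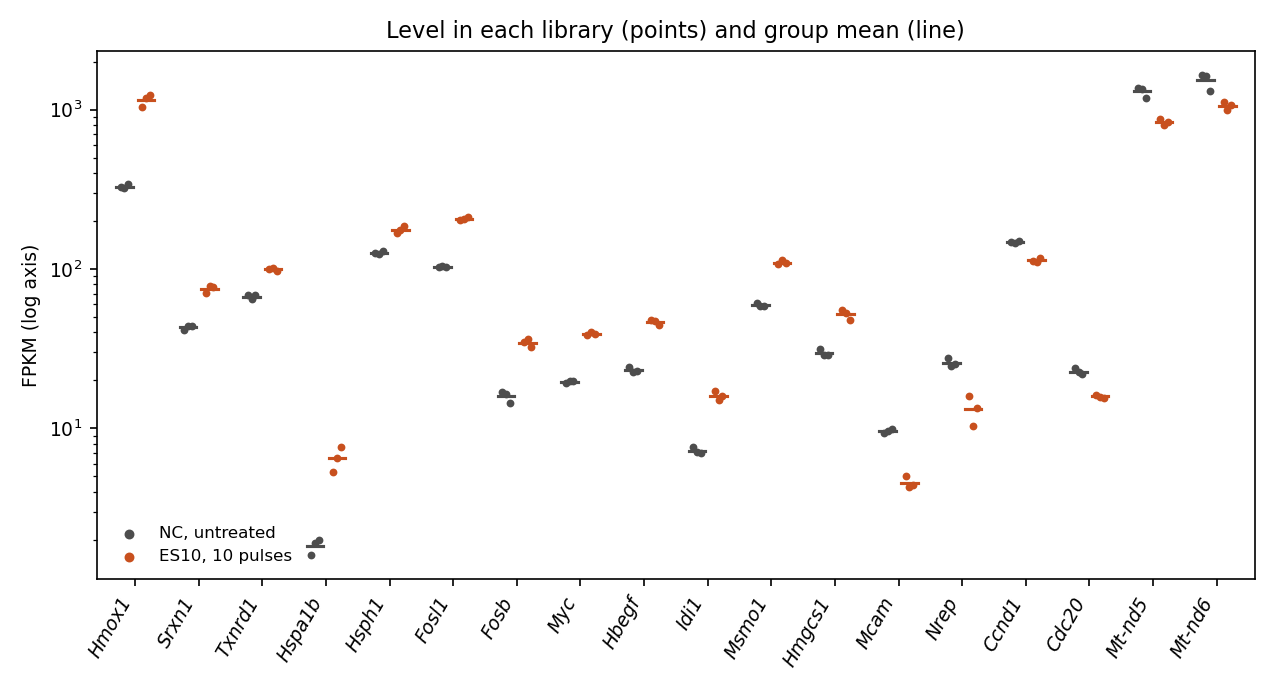
FPKM on a log axis in each of the 3 NC and 3 ES10 libraries (points) with the group means (lines) for 18 genes of the groups described in the text. Hmox1 sits at 321 to 341 in NC and 1041 to 1229 in ES10. The genes shown were all called, and the 2 groups do not overlap in any called gene.

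Of 27 tested chaperones of a list of heat shock genes 13 were called higher, 1 lower and 13 neither, against 14.2% and 6.89% of all tested genes, and the median log2 difference was 0.22 against 0.02 over all tested genes. Hspa1b, an inducible HSP70, read 1.60, 1.90 and 1.99 FPKM in NC and 5.36, 6.54 and 7.65 FPKM in ES10 (1.40 ± 0.12, adjusted p = 0.000722, limma). Its near-identical copy Hspa1a did not pass the filter, and reads of the pair may be split in counting. Hspa4l and Hsph1 belong to the HSP110 family, which exchanges the nucleotide of HSP70. Hspa4l went from 7.12, 7.25 and 7.67 FPKM to 11.5, 11.5 and 11.3 FPKM and Hsph1 from 126, 123 and 129.6 FPKM to 168, 175 and 186 FPKM. Bag3, a co-chaperone that hands clients to autophagy, went from 77.4, 77.8 and 78.0 FPKM to 99.6, 108 and 108 FPKM. In these 4 genes, as in all called genes, no ES10 library overlapped with NC. Smaller increases were found for the abundant Hsp90ab1 (HSP90 beta, 0.29 ± 0.03) and Hspb1 (the small chaperone HSP27, 0.23 ± 0.039) and for the co-chaperones Dnaja1 (0.31 ± 0.029) and Dnajb4 (0.30 ± 0.036). The factor itself, Hsf1, read 16.5, 16.6 and 15.7 FPKM in NC and 15.9, 14.9 and 15.6 FPKM in ES10 and was not called.

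Promoters of these genes are shown because heat shock factors bind a repeated short element near the start of their targets. The core of that element was searched as TTCNNGAA or GAANNTTC, both of which read the same on either strand, in windows from 250 bases before to 50 bases after the gene start (RefSeq, build GRCr8). It was found in 16 of the 21 tested heat shock members with a window in that table (76.2%), in 8 of the 10 called higher, and in 15.4% of all 27457 windows. It was in 10.8% of the windows of all genes called higher and 12.1% of those called lower. Windows were matched by symbol for 68.6% of the tested genes, and Hspa1b had none, so it was not searched. Capitals mark the matches, which are a description of the letters and not sites shown to be bound. Hspa4l is from chr2:125668096-125668395 of build GRCr8, plus strand, with its match 38 bases after the start, Hsph1 from chr12:10427118-10427417, plus strand, with 3 matches of which the last 2 overlap, and Bag3 from chr1:192533210-192533509, plus strand.
Hspa4l: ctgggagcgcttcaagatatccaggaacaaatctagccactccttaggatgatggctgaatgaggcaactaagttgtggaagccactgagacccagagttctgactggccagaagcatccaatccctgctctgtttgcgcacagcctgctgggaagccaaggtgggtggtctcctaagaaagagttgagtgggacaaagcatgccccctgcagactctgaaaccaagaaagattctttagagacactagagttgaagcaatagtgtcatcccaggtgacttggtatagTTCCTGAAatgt
Hsph1: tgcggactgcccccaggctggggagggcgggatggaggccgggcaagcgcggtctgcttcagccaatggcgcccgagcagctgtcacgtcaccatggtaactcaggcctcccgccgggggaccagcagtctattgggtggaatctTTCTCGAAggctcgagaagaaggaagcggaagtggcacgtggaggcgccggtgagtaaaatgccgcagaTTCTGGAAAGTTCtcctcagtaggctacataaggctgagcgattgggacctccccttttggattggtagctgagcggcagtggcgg
Bag3: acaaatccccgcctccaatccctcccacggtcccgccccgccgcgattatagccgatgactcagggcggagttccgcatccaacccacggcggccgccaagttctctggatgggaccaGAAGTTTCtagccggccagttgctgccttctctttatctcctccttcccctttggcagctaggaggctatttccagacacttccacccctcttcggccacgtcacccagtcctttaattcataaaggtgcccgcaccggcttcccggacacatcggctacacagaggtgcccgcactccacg

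Genes of the NRF2 pathway, the response to oxidants and electrophiles, showed a similar direction. Of 26 tested members 11 were called higher and 0 lower, beside 14.2% and 6.89% of all tested genes. The median log2 difference was 0.15, and 8 of the 11 kept their call in all 17 alternative analyses. Srxn1, sulfiredoxin, which repairs oxidised peroxiredoxins, went from 41.5, 43.9 and 43.7 FPKM to 70.6, 78.0 and 77.1 FPKM (0.79 ± 0.047). Txnrd1, thioredoxin reductase, went from 68.3, 64.7 and 68.6 FPKM to 101, 102 and 96.8 FPKM (0.56 ± 0.036), and Akr1b8, an aldo-keto reductase, from 83.9, 86.2 and 80.8 FPKM to 124, 122 and 136 FPKM (0.60 ± 0.049). The small MAF proteins, which pair with NRF2 on DNA, rose as a set of 3. Mafk had 41.8, 39.2 and 39.7 FPKM in NC and 69.4, 71.3 and 70.2 FPKM in ES10, Maff 25.9, 22.9 and 23.0 FPKM and 37.2, 39.4 and 35.6 FPKM, and Mafg 20.7, 22.1 and 20.3 FPKM and 28.5, 29.1 and 30.03 FPKM. The ES10 libraries were the higher ones in each of these 6 genes, as in all genes called higher. The peroxidase Prdx1 (0.31 ± 0.039) and Gclc (0.24 ± 0.041), the catalytic subunit that starts glutathione synthesis, rose less. Nqo1, the quinone reductase often used as the marker of this pathway, read 153, 142 and 153 FPKM in NC and 159.9, 164 and 168 FPKM in ES10. Its log2 difference of 0.13 ± 0.038 had an adjusted p of 0.0493 (limma) and was not called in 13 of the 17 alternatives, leaving out any 1 library among them. Nfe2l2, which codes for NRF2, was not called, at a log2 difference of 0.13 ± 0.038.

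Beside Hmox1, the genes of heme and iron metabolism went both ways. Of 22 tested members 4 were called higher and 3 lower, beside 14.2% and 6.89% of all tested genes. Slc48a1, the heme transporter HRG1, rose from 53.3, 53.1 and 51.6 FPKM to 61.8, 62.8 and 64.2 FPKM. Bach1, the heme-sensing repressor of Hmox1, read 6.16, 5.65 and 5.97 FPKM in NC and 8.62, 9.05 and 7.80 FPKM in ES10, and its call was lost in the fit of all 18 libraries. Among the enzymes of heme synthesis Urod fell, from 12.002, 12.04 and 12.4 FPKM to 9.95, 9.87 and 10.2 FPKM (-0.25 ± 0.039), and its call was lost in the same fit. The antioxidant response element core TGACNNNGC, searched on both strands, was found in 6 of the 24 tested NRF2 members with a window, in 19.0% of genes called higher and in 12.2% of all windows. Hmox1 had no window and was not searched. Of the called members with a window, Mafk is shown as the one with the largest increase that holds a match, with the match in capitals (chr12:19959143-19959442, GRCr8, minus strand).
Mafk: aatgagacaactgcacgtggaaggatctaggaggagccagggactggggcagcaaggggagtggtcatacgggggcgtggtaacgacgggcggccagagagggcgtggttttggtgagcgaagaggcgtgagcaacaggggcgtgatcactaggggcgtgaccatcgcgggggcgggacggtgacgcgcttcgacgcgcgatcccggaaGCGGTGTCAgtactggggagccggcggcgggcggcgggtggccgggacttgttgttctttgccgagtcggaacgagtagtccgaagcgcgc

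Immediate early genes were called in both directions. Of 9 tested AP-1 factors 6 were called higher and 1 lower, with a median log2 difference of 0.44. Of 30 other immediate early genes 12 were called higher and 3 lower, with a median of 0.13. The shares of all tested genes were 14.2% and 6.89%. Fosb went from 16.9, 16.5 and 14.5 FPKM to 34.7, 36.5 and 32.3 FPKM (1.06 ± 0.068). Fos went from 22.0, 19.3 and 16.6 FPKM to 32.0, 35.2 and 27.5 FPKM (0.68 ± 0.12), and Jun from 35.1, 34.6 and 34.3 FPKM to 47.0, 49.8 and 47.0 FPKM (0.45 ± 0.034). Junb, another subunit, went the other way, from 122, 109 and 116 FPKM to 97.0, 101 and 99.1 FPKM (-0.22 ± 0.044). Myc, a growth factor-induced transcription factor, read 19.3, 19.96 and 19.9 FPKM in NC and 38.5, 40.5 and 39.1 FPKM in ES10, with an adjusted p of 4.47e-05 (limma). Csrnp1, a nuclear protein induced by AXIN1, went from 26.4, 26.0 and 27.3 FPKM to 50.5, 51.0 and 51.7 FPKM. Both were near 2-fold higher with little spread, at log2 0.96 ± 0.035 and 0.92 ± 0.032. Egr1 rose from 15.4, 15.3 and 13.6 FPKM to 22.5, 24.7 and 19.3 FPKM and Ier3 from 103, 89.3 and 103 FPKM to 136, 150.5 and 149 FPKM. Zinc finger factors of the KLF family were called higher too, with Klf2, Klf5 and Klf6 at 0.59 ± 0.12, 0.57 ± 0.039 and 0.56 ± 0.039. Ier5l fell from 32.8, 34.9 and 33.9 FPKM to 19.2, 19.98 and 21.6 FPKM, the largest decrease on these lists.

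The CArG box, to which serum response factor binds, is the letters CC and GG around a run of A or T. It was found in 23.8% of the 21 tested immediate early genes outside AP-1 with a window, in 3 of the 7 called higher, and in 1.64% of all windows. It was in 0 of the 6 windows of tested AP-1 factors. Of tested YAP and SRF targets it was in 2 of 22 windows and in 0 of the 6 called higher. The cAMP response element TGACGTCA and the AP-1 site TGANTCA were found in 1 and 3 of the 21 windows outside AP-1, against 1.91% and 7.33% of all windows. Both were in 0 of the 7 called higher there. Klf6 (chr17:69458429-69458728, GRCr8, minus strand) and Egr1 (chr18:26736828-26737127, GRCr8, plus strand) are shown as the called members with the largest increases that hold a match, with CArG boxes in capitals, 1 in Klf6 and 2 in Egr1.
Klf6: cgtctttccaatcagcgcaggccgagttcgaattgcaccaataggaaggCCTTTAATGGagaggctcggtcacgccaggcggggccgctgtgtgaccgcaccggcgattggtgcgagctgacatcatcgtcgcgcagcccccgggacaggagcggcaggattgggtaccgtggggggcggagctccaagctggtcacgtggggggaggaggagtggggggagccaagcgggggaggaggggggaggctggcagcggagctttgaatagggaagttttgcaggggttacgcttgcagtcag
Egr1: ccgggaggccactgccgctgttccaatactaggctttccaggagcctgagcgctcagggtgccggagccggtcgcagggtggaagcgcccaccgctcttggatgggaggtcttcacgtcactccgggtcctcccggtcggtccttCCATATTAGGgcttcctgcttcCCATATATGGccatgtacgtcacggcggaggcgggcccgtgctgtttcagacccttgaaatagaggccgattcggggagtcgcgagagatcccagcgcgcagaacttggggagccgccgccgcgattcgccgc

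Some genes of ligands and inhibitors of kinase signalling were called too, and a link to the immediate early genes was not tested. Hbegf, a ligand of the EGF receptor that is shed from the membrane, rose from 24.2, 22.5 and 23.0 FPKM to 48.0, 47.0 and 44.5 FPKM (0.97 ± 0.043, adjusted p = 7.46e-05, limma). Of 7 tested members of the family 2 were called higher and 0 lower, with a median log2 difference of -0.01. The shares of all tested genes were 14.2% and 6.89%. Of 14 phosphatases and other inhibitors of MAP kinases 6 were called higher and 2 lower. Dusp5, a nuclear phosphatase of ERK, went from 50.1, 49.0 and 47.4 FPKM to 65.7, 72.6 and 67.4 FPKM (0.48 ± 0.045). Dusp10, a phosphatase of p38 and JNK, went from 11.7, 12.2 and 11.7 FPKM to 19.1, 19.6 and 18.8 FPKM (0.65 ± 0.038), and its call was lost in the fit of all 18 libraries.

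Genes of cholesterol synthesis rose at early and late steps of the pathway. All 21 listed enzymes of the mevalonate and sterol steps were tested, 14 were called higher and 0 lower, and the median log2 difference was 0.40. Among early steps, Hmgcs1, HMG-CoA synthase, went from 31.5, 28.7 and 29.0 FPKM to 55.0, 53.2 and 47.6 FPKM (0.78 ± 0.062, adjusted p = 0.00055, limma). Idi1, the isomerase that makes the isoprenoid building block, went from 7.63, 7.09 and 7.05 FPKM to 17.1, 15.1 and 16.0 FPKM (1.05 ± 0.057). The ES10 libraries lay above NC in both genes, as in all genes called higher. In the sterol branch, Sqle, squalene epoxidase, rose by log2 0.53 ± 0.037, Cyp51, the lanosterol demethylase, by 0.63 ± 0.041, and Msmo1, the methylsterol oxidase, by 0.87 ± 0.036. Msmo1 was the most abundant of the 3, at 61.3, 58.6 and 58.8 FPKM in NC and 107, 114 and 109 FPKM in ES10. Of 15 genes of sterol sensing, uptake and export 6 were called higher and 0 lower, beside 14.2% and 6.89% of all tested genes. The 15 did not rise as a set. Their median log2 difference was -0.05 against 0.02 over all tested genes, and 7 were above 0. Insig1, the sterol-sensing retention protein of the endoplasmic reticulum, went from 27.9, 29.0 and 27.3 FPKM to 45.0, 49.1 and 42.2 FPKM, Npc1, which exports cholesterol from lysosomes, from 15.3, 14.7 and 15.9 FPKM to 23.9, 23.8 and 24.0 FPKM, and Srebf2, which codes for SREBP2, from 16.9, 16.3 and 17.5 FPKM to 21.9, 23.3 and 22.1 FPKM. Fatty acid synthesis did not move as one, with 4 of 12 tested genes called higher and 2 lower, and Fads2, a desaturase, was the one whose call held in all 17 alternatives (0.26 ± 0.036). The sterol regulatory element core TCACNCCAC, searched on both strands, was in 1.13% of all windows and in none of the 16 windows of the synthesis genes or the 12 of the sensing and uptake genes.

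**Figure D3:**
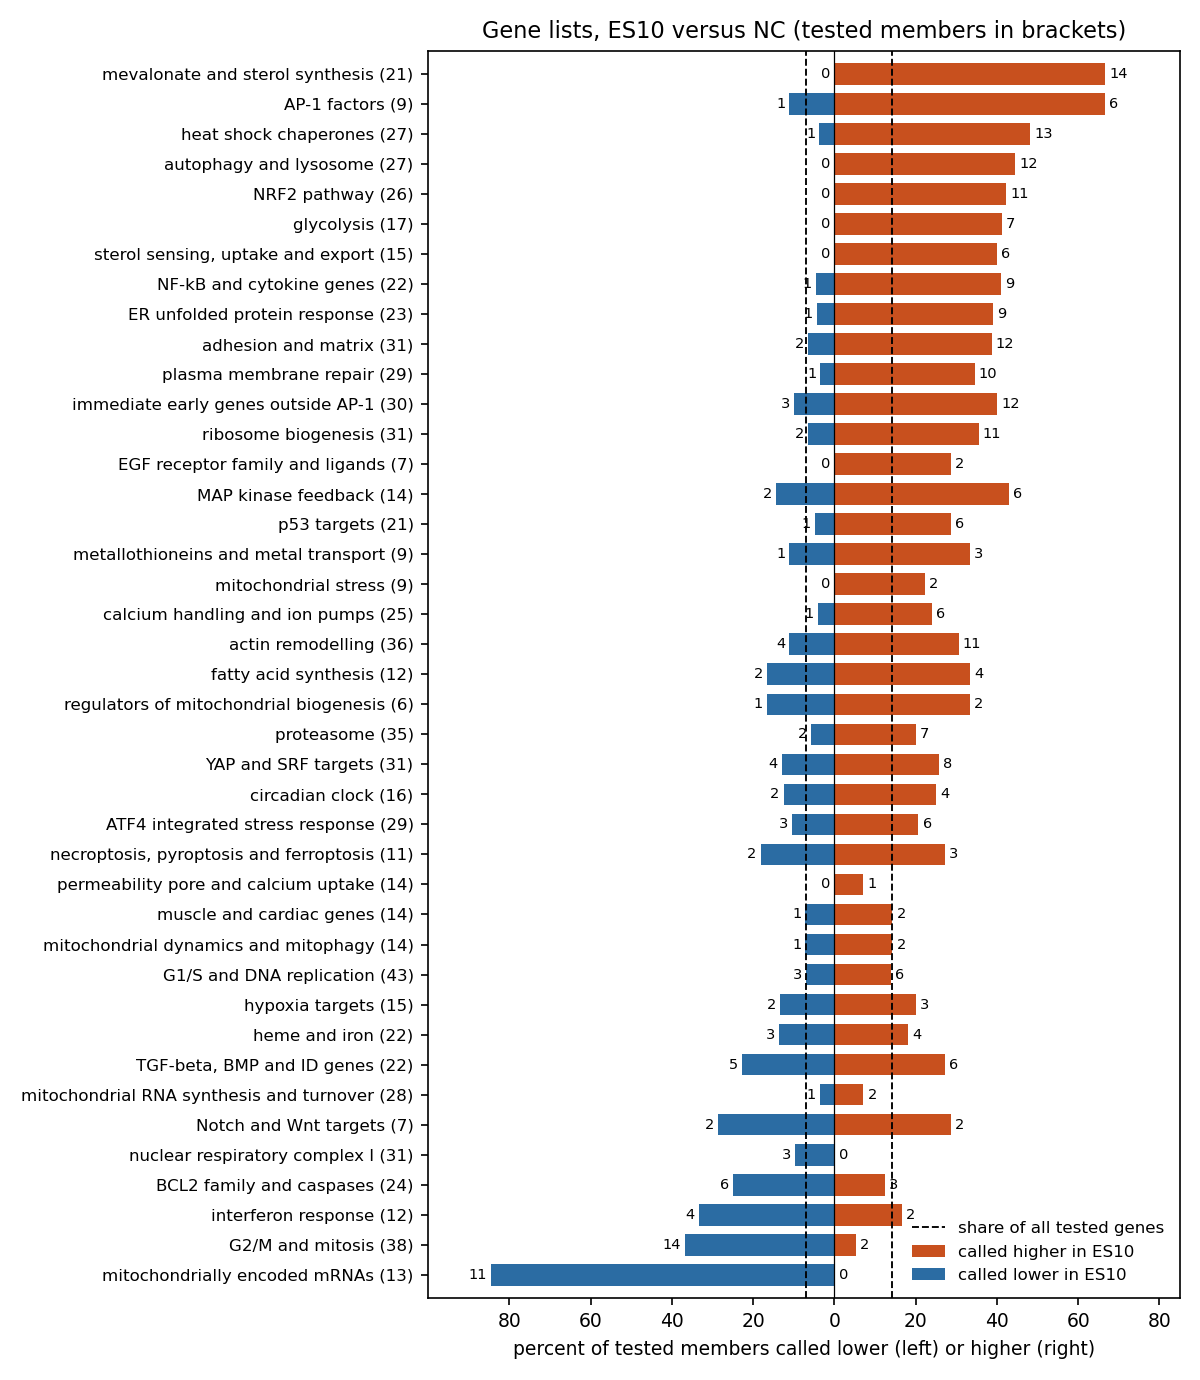
Percent of the tested members of each gene list called higher (right) and called lower (left) in ES10, with the number called at the end of each bar and the number tested in brackets; dashed lines mark the shares of all tested genes, 14.2% and 6.89%. Mevalonate and sterol synthesis (14 of 21 higher) stands at the top and the mitochondrially encoded mRNAs (11 of 13 lower) at the bottom.

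Most mRNAs of the mitochondrial genome fell, although under quantile normalization the signs of the called Mt-atp6 and Mt-co2 turned. Of the 13 mitochondrial mRNAs 11 were called lower and 0 higher, with a median log2 difference of -0.46 and a range of -0.75 to -0.22. Mt-atp8, which codes for subunit 8 of ATP synthase, went from 205, 188 and 169 FPKM to 119, 104 and 111 FPKM (-0.75 ± 0.079). Among subunits of complex I, Mt-nd5 went from 1371, 1352 and 1186 FPKM to 879.8, 799 and 832 FPKM (-0.64 ± 0.064) and Mt-nd4l from 2189, 2029 and 1808 FPKM to 1308, 1181 and 1258 FPKM (-0.68 ± 0.074). Mt-nd6, the mRNA of the light strand, went from 1654, 1616 and 1302 FPKM to 1109, 988 and 1064 FPKM (-0.53 ± 0.095). These 4 kept their call in all 17 alternatives, and, as in all called genes, no ES10 library overlapped with NC. Mt-co1, the catalytic subunit of cytochrome oxidase, and Mt-cytb, cytochrome b, had 19252, 17842 and 15366 and 8722, 8015 and 7072 FPKM in NC and 13197, 12418 and 12489 and 5871, 5616 and 5548 FPKM in ES10. Their log2 differences were -0.46 ± 0.085 and -0.48 ± 0.077, and their calls were lost under quantile normalization and without the filter on low values. Mt-nd2 and Mt-nd3 were not called, at -0.25 ± 0.077 and -0.22 ± 0.09, and Mt-nd3 was at 0.018 under quantile normalization, where the median of the 13 was -0.11. In all 13 mRNAs NC replicate 3 was the lowest of the NC libraries, and the spread within NC was wider than within ES10. Of the 11 called mRNAs 5 kept their call in the 4 other scalings. Overlapping genes (Mt-atp8 with Mt-atp6, Mt-nd4l with Mt-nd4) and opposite strands (Mt-nd5 and Mt-nd6) may share reads, and strandedness is not given in the sources used here.

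**Figure D4:**
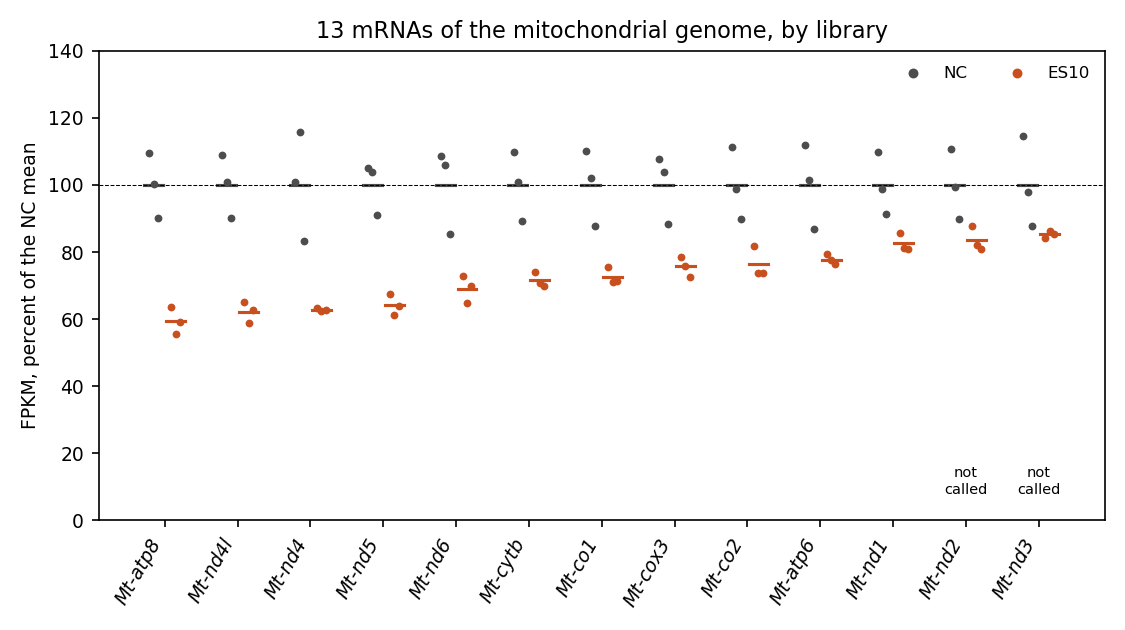
FPKM of the 13 mitochondrially encoded mRNAs in each library as percent of the NC mean of that gene, with group means as lines, ordered by the size of the difference. All ES10 points of the 11 called mRNAs lie below their NC points, as in all genes called lower, and Mt-nd2 and Mt-nd3 on the right were not called.

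As a share of all reads on genes, the mitochondrial genome held 13.97%, 13.19% and 11.60% in the NC libraries and 9.80%, 9.25% and 9.26% in the ES10 libraries. The difference of -3.49 percentage points had an exact two-sided permutation p of 0.1, the smallest that 3 against 3 libraries can give. Of 31 tested nuclear subunits of complex I 0 were called higher and 3 lower, and of 28 genes of mitochondrial RNA synthesis and turnover 2 and 1, shares under those of all tested genes except for the 9.68% of complex I called lower. Grsf1, an RNA-binding protein of mitochondrial RNA granules, was the called member of the latter list that fell, from 19.8, 19.8 and 20.55 FPKM to 17.4, 15.8 and 16.3 FPKM, and its call was lost in the fit of all 18 libraries. Tfam, the mitochondrial DNA-packaging and transcription factor, read 13.7, 12.8 and 14.3 FPKM and 14.6, 13.1 and 13.3 FPKM and was not called. Ppargc1a, the co-activator of mitochondrial biogenesis, did not pass the filter. Of 6 tested regulators of mitochondrial biogenesis 2 were called higher and 1 lower, beside 14.2% and 6.89% of all tested genes. Yy1, a transcription factor of nuclear respiratory genes, rose slightly (0.21 ± 0.03). Esrra was the member called lower (-0.28), and its call was lost without ES10 replicate 1 or 3. Vdac1, the main channel of the outer membrane, read 31.9, 28.9 and 32.4 FPKM in NC and 25.7, 23.8 and 30.6 FPKM in ES10, groups that overlap, and was not called. Of 14 tested genes of the permeability pore and calcium uptake 1 was called higher and 0 lower, 7.14% in all against 21.1% of all tested genes. The 1 called was the calcium uniporter Mcu, which rose by 0.25 ± 0.04 and lost its call in the fit of all 18 libraries.

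Genes of cell death and of the p53 response changed in part. Of 24 tested BCL2 family members, caspases and their regulators 3 were called higher and 6 lower, against 14.2% and 6.89% of all tested genes. Pmaip1, the BH3-only protein NOXA, rose from 16.6, 14.8 and 14.4 FPKM to 19.9, 21.3 and 18.7 FPKM (0.37 ± 0.066), and Birc5, survivin, which serves in mitosis as well as in survival, fell from 35.3, 31.9 and 32.7 FPKM to 24.8, 25.1 and 26.2 FPKM (-0.38 ± 0.047). Bmf, Casp2, Bok, Diablo and Bak1 were also called lower, at log2 differences of -0.51, -0.35, -0.24, -0.23 and -0.20. Bcl2l2 and Apaf1 were called higher, at 0.15 and 0.21. None of these further calls held in all alternatives. Bax and Bcl2, the textbook executioner and inhibitor of apoptosis, were not called, at log2 differences of 0.16 ± 0.066 and 0.08 ± 0.064. Genes of lytic forms of death included Ripk3, a kinase of necroptosis, which rose from 23.9, 22.8 and 24.0 FPKM to 28.3, 30.5 and 31.1 FPKM, and Casp4, an inflammatory caspase, which fell from 10.2, 11.1 and 9.36 FPKM to 6.74, 7.31 and 7.51 FPKM. Mlkl, a further gene of necroptosis, was called lower (-0.33) and lost that call in several alternatives. Of 21 tested p53 targets 6 were called higher and 1 lower. Plk2, a polo-like kinase, went from 92.8, 93.3 and 93.4 FPKM to 139, 137 and 132 FPKM (0.54 ± 0.029), Gadd45a from 87.2, 84.0 and 85.5 FPKM to 118, 127 and 128 FPKM (0.53 ± 0.037), and Mdm2, the ligase that degrades p53, from 54.7, 54.3 and 58.2 FPKM to 67.9, 67.6 and 68.4 FPKM. Cdkn1a, which codes for p21, read 107, 105 and 113 FPKM and 117, 121 and 121 FPKM, and its call at an adjusted p of 0.0364 (limma) was lost in 12 of the 17 alternatives. Phlda3, an inhibitor of AKT, fell by 0.21 ± 0.042.

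Genes of the stress response that slows translation went both ways. Of 29 tested genes of the ATF4 response 6 were called higher and 3 lower, beside 14.2% and 6.89% of all tested genes. Ppp1r15a, GADD34, which restores translation, went from 61.6, 59.7 and 61.8 FPKM to 97.4, 102 and 94.2 FPKM (0.67 ± 0.038), Chac1, which degrades glutathione, from 15.6, 16.9 and 18.3 FPKM to 23.7, 25.6 and 24.8 FPKM, and Atf4 from 349, 337 and 342 FPKM to 426, 435 and 419.7 FPKM. Phgdh, the first enzyme of serine synthesis, fell from 39.4, 37.4 and 37.8 FPKM to 29.8, 32.3 and 29.2 FPKM, and Pck2, the mitochondrial PEP carboxykinase, from 11.004, 10.1 and 11.7 FPKM to 8.48, 8.36 and 8.24 FPKM. Ddit3, the factor CHOP, read 45.6, 44.2 and 45.6 FPKM in NC and 39.97, 42.8 and 43.5 FPKM in ES10 and was not called. Of 23 tested genes of the unfolded protein response 9 were called higher and 1 lower. Dnajb9, a co-chaperone of the endoplasmic reticulum, went from 24.0, 24.7 and 23.0 FPKM to 33.7, 33.3 and 36.3 FPKM, Atf6, a stress sensor of that membrane, from 34.6, 33.8 and 33.8 FPKM to 48.4, 46.3 and 46.8 FPKM, and Herpud1, which acts in degradation there, from 56.5, 54.7 and 53.2 FPKM to 64.7, 70.1 and 69.1 FPKM.

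Genes that act at the plasma membrane and its skeleton were called in both directions, beside 14.2% higher and 6.89% lower of all tested genes, a balance that turns under scaling to reads on nuclear genes (919 higher and 1781 lower). Of 29 tested genes of membrane repair 10 were called higher and 1 lower, and 8 of the 11 kept their call in all alternatives. Beside Trim72, Dysf, dysferlin, which fuses vesicles to wounds in muscle, went from 25.5, 26.3 and 25.5 FPKM to 31.0, 31.3 and 30.2 FPKM (0.25 ± 0.032), Anxa1, a calcium-dependent membrane-binding annexin, from 511, 507 and 492 FPKM to 673, 644 and 626 FPKM (0.36 ± 0.036), and Pdcd6, a calcium sensor of the ESCRT system, from 31.0, 28.0 and 31.5 FPKM to 40.5, 43.2 and 40.04 FPKM (0.44 ± 0.054). The caveola genes Ptrf and Cav1 rose by 0.42 ± 0.033 and 0.23 ± 0.027, and Anxa7 fell by 0.19 ± 0.036. Of 25 tested genes of calcium handling and ion pumps 6 were called higher and 1 lower. Rcan1, an inhibitor and target of calcineurin, went from 21.4, 20.1 and 21.4 FPKM to 33.9, 30.7 and 32.5 FPKM (0.60 ± 0.047). Atp1b1, a subunit of the sodium pump, went from 46.0, 43.2 and 43.8 FPKM to 62.8, 60.4 and 60.02 FPKM, Kcnn4, a calcium-gated potassium channel, from 2.70, 2.67 and 3.04 FPKM to 3.99, 3.95 and 3.96 FPKM, and Piezo1, a stretch-gated channel, from 39.4, 40.1 and 40.7 FPKM to 48.0, 51.0 and 49.3 FPKM.

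Of 36 tested genes of actin remodelling 11 were called higher and 4 lower, beside 14.2% and 6.89% of all tested genes. Rnd1, an atypical small GTPase that loosens adhesion, went from 10.9, 8.41 and 10.0 FPKM to 16.5, 16.5 and 16.5 FPKM (0.71 ± 0.083), Ssh1, a phosphatase of cofilin, from 12.9, 13.4 and 12.8 FPKM to 20.03, 21.8 and 20.46 FPKM, and Diaph1, a formin, from 13.9, 13.8 and 14.6 FPKM to 19.6, 20.4 and 19.5 FPKM. Arhgef2, a guanine nucleotide exchange factor held on microtubules, fell from 29.0, 30.3 and 30.3 FPKM to 21.8, 21.6 and 21.9 FPKM (-0.44 ± 0.033), and Actb, cytoplasmic actin, from 1516, 1484 and 1460.5 FPKM to 1224, 1248 and 1236 FPKM (-0.27 ± 0.029). Of 31 tested targets of YAP and SRF 8 were called higher, 4 lower and 19 neither, with a median log2 difference of 0.07. Of those called higher, Ankrd1, a cardiac ankyrin repeat protein, rose from 70.5, 65.8 and 64.1 FPKM to 91.4, 95.8 and 86.9 FPKM and Amotl1 from 20.8, 20.7 and 22.5 FPKM to 31.3, 30.4 and 29.0 FPKM. Of 31 tested adhesion and matrix genes 12 were called higher and 2 lower. Cd44, the hyaluronan receptor, went from 141, 139 and 144 FPKM to 236, 226 and 226 FPKM (0.69 ± 0.03, adjusted p = 7.17e-05, limma), Thbs1, thrombospondin 1, from 609.7, 584 and 593 FPKM to 839, 777 and 728 FPKM, and Fn1, fibronectin, from 1135, 1139.7 and 1168 FPKM to 1339, 1384 and 1339.8 FPKM.

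Of 14 tested muscle and cardiac genes 2 were called higher and 1 lower, shares near the 14.2% and 6.89% of all tested genes. Myod1, the master factor of skeletal myoblasts, went from 31.9, 32.2 and 31.9 FPKM to 58.9, 59.6 and 61.9 FPKM (0.89 ± 0.031, adjusted p = 4.47e-05, limma), and the groups did not overlap, as in all called genes. Xirp1, a protein of sites of muscle remodelling, went from 5.25, 4.90 and 5.34 FPKM to 8.65, 8.68 and 8.20 FPKM, while Mef2c, a factor of cardiac and skeletal differentiation, fell from 8.27, 7.22 and 8.39 FPKM to 6.10, 6.14 and 6.11 FPKM. Cdh15, the cadherin of myoblasts, fell as well, from 86.8, 84.9 and 84.4 FPKM to 67.2, 67.6 and 64.5 FPKM (-0.36 ± 0.03).

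Signalling and inflammatory genes were split. Counts in this paragraph stand beside 14.2% called higher and 6.89% called lower of all tested genes. Of 22 tested NF-kB targets and cytokines 9 were called higher and 1 lower. Cxcl1, a chemokine that attracts neutrophils, read 63.0, 60.6 and 59.8 FPKM in NC and 129, 121 and 119 FPKM in ES10 (1.00 ± 0.04), and lost its call in the fit of all 18 libraries. Il1rl1, the receptor of interleukin 33, went from 7.29, 8.28 and 7.30 FPKM to 14.04, 13.6 and 13.2 FPKM, Nfkbib, an inhibitor of NF-kB, from 19.7, 19.7 and 18.9 FPKM to 28.5, 29.2 and 30.2 FPKM, and Csf1, a macrophage growth factor, from 22.8, 22.3 and 24.1 FPKM to 31.1, 30.9 and 33.5 FPKM. Csf1r, the receptor of that factor and 1 of the 2 tested leukocyte markers, rose from 0.764, 0.606 and 0.639 FPKM to 1.62, 1.84 and 1.92 FPKM. Of 12 tested interferon genes 2 were called higher and 4 lower, with Irf7 falling from 6.48, 6.21 and 6.55 FPKM to 4.40, 4.82 and 4.83 FPKM. In the TGF-beta family 6 of 22 tested genes were called higher and 5 lower. The ligand Tgfb1 fell from 11.3, 12.5 and 12.9 FPKM to 8.58, 7.44 and 8.10 FPKM (-0.55 ± 0.068) and Pmepa1, a feedback inhibitor of the pathway, from 107, 102 and 101 FPKM to 75.5, 67.7 and 69.0 FPKM (-0.55 ± 0.047), whereas the ligand Tgfb2 and the inhibitor Id2 rose by 0.27 ± 0.043 and 0.50 ± 0.047. Jag1, a Notch ligand, rose from 9.68, 9.84 and 10.1 FPKM to 15.2, 15.4 and 14.9 FPKM and Notch3, a Notch receptor, fell from 3.43, 3.33 and 3.23 FPKM to 1.64, 1.89 and 1.77 FPKM.

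Mitotic genes fell more often than they rose. Of 38 tested genes of G2 and mitosis 2 were called higher and 14 lower, with a median log2 difference of -0.14, and all 16 calls held in the 4 other scalings. Cdc20, the activator of the anaphase-promoting complex, fell from 23.8, 22.5 and 21.8 FPKM to 16.3, 15.8 and 15.5 FPKM (-0.49 ± 0.044), Fam64a, a mitotic regulator, from 11.9, 12.3 and 11.3 FPKM to 6.12, 7.66 and 6.995 FPKM, and the kinesins Kif20a, Kif20b and Kif2c differed by log2 -0.31 ± 0.035, -0.38 ± 0.061 and -0.38 ± 0.06. Ccnf, cyclin F, and Anln, anillin, rose instead, from 23.7, 23.7 and 25.04 FPKM to 34.9, 35.7 and 36.1 FPKM and from 33.5, 35.8 and 33.1 FPKM to 41.3, 41.3 and 41.2 FPKM. Genes of G1, S phase and DNA replication stood near the background of 14.2% higher and 6.89% lower. Of 43 tested members 6 were called higher and 3 lower. Of these, Ccnd1, cyclin D1, fell from 148, 146 and 149.6 FPKM to 112, 110.4 and 117 FPKM (-0.38 ± 0.032) and Pcna, the sliding clamp, rose from 75.6, 72.2 and 76.3 FPKM to 90.8, 95.6 and 99.4 FPKM (0.35 ± 0.041).

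Genes of protein and organelle turnover are set beside the 14.2% called higher and 6.89% called lower of all tested genes. Of 27 tested autophagy and lysosome genes 12 were called higher and 0 lower, of which 6 kept their call in the 4 other scalings. Gabarapl1, an ATG8 protein, went from 40.4, 37.6 and 39.8 FPKM to 56.1, 56.4 and 57.4 FPKM (0.52 ± 0.036), Sqstm1, the receptor p62, from 204, 197 and 208 FPKM to 242, 251 and 259.8 FPKM, and Atp6v1h, a subunit of the proton pump, from 31.6, 32.1 and 31.0 FPKM to 43.7, 40.8 and 40.4 FPKM. Of 35 tested proteasome genes 7 were called higher and 2 lower, 25.7% called in all against 21.1% of all tested genes, and 5 of the 9 calls held in the 4 other scalings. Zfand2a, AIRAP, a stress-induced partner of the proteasome, rose most, from 113, 112 and 109.6 FPKM to 196, 204 and 196 FPKM (0.83 ± 0.029, adjusted p = 4.47e-05, limma). In glycolysis 7 of 17 tested genes were called higher and 0 lower, 3 of them in all other scalings: Hk2, a hexokinase bound to mitochondria, from 29.7, 29.4 and 29.2 FPKM to 41.3, 41.2 and 42.5 FPKM, Hk1 by 0.29 ± 0.034 and Pgam1 by 0.23 ± 0.027. Hif1a, the hypoxia-inducible factor, rose from 34.3, 36.4 and 33.5 FPKM to 45.4, 46.2 and 47.8 FPKM. Hypoxia targets did not rise as a set, with 3 of 15 tested called higher, 2 lower and a median log2 difference of 0.01. Of 31 tested genes of ribosome biogenesis 11 were called higher and 2 lower, among them Gnl3, nucleostemin, from 46.9, 45.8 and 45.6 FPKM to 63.6, 62.5 and 62.2 FPKM.

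Called genes were not spread evenly over level and length. When genes were ranked by mean FPKM into 5 bins of equal size, the share called higher went from 5.16% in the lowest to 26.3% in the highest, and the share called lower from 4.03% to 6.43%. In 5 bins of gene length the share called higher went from 6.84% to 21.2% and the share called lower from 4.89% to 5.84%. Of the genes called higher 95.9% were protein-coding, against 92.8% of all tested genes.

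Position was looked at after the values were seen, because some low genes among the largest increases lay next to expressed genes. Pygm (chromosome 1, 221756286 to 221771143, plus strand, Rnor 6.0) starts 7199 bases beyond the end of Sf1, a splicing factor named here for its position, at 73.1 FPKM in NC and 90.8 FPKM in ES10. Others lay further off, with Trim72, Hap1 and Serpinb2 starting 23270, 13421 and 95881 bases beyond the nearest upstream gene of at least 1 FPKM. Some low genes called higher passed the filter through ES10 only, such as Uchl3 at a mean of 0.262 FPKM in NC. Among genes with a mean FPKM under 5 in NC, 57 of the 290 called higher (19.7%) and 26 of the 90 called higher at least 1.5-fold (28.9%) started within 10000 bases of the end of an upstream gene of the same strand with an FPKM of at least 1, against 14.8% of all 4113 such low genes and 10.1% of the 189 called lower at any size. With an upstream gene of at least 10 FPKM the shares were 13.4%, 17.8%, 6.73% and 3.70% in the same order. Among genes at 5 FPKM or more, 12.9% of those called higher at least 1.5-fold and 15.7% of all had an upstream neighbour of at least 1 FPKM. The shares there were 11.6% of all called higher and 17.8% of those called lower. No test was made of these shares, and since strandedness is not given, the strand of the reads is unknown.

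The same 10 pulses were also given to cells kept with PE, which allows the response to be set beside that of another pair of groups. The fit used for this takes the spread of each gene from all 12 libraries, NC and ES10 included. The calls of both pairs are therefore not independent. In a fit of the 12 libraries of NC, ES10, P and P_ES10, 44.1% of 11549 tested genes were called between P_ES10 and P, 23.0% higher and 21.1% lower. Of the 1573 genes called higher in ES10, 1350 (85.8%) were called higher in P_ES10, which is 51.5% of that list, and 10 were called lower. Of the 761 called lower, 608 (79.9%) were called lower there, 25.5% of that list, and 10 were called higher. The difference between the 2 responses was itself tested as an interaction, and 6.10% of genes were called, 2.87% with the larger value with PE. Of these 704 calls 331 were higher with PE and 373 lower as deposited, and 252 and 739 after scaling to total reads. In the fit of all 18 libraries, which adds the groups given 50 pulses, 108 genes were called.

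Positive interactions were called for genes of several groups described above. For Fos the log2 response was 0.68 ± 0.11 without and 2.32 ± 0.11 with PE, an interaction of 1.64 ± 0.16 (adjusted p = 0.000382, limma). Its mean level was 8.38 FPKM in P and 45.8 FPKM in P_ES10, against 19.3 FPKM in NC and 31.6 FPKM in ES10. The same order of the 4 means was seen for Fosb (interaction 1.48 ± 0.12), Egr1 (1.18 ± 0.17) and Klf4, a further factor of the KLF family (1.26 ± 0.12). Hmox1 read 149 FPKM in P and 1035 FPKM in P_ES10, against 329 FPKM in NC and 1152 FPKM in ES10, with an interaction of 0.99 ± 0.078. They were also called for Hspa1b (1.12 ± 0.15), Trim72 (1.05 ± 0.15), Adm (0.93 ± 0.087), Myc (0.59 ± 0.082) and the sterol genes Idi1 (1.05 ± 0.081) and Hmgcs1 (0.80 ± 0.075). In the fit of all 18 libraries the interactions of Klf4, Hspa1b, Trim72 and Myc, and that of Hoxb5 below, were not called. Of the AP-1 factors 6 of 9, and of the mitochondrial mRNAs 12 of 13, were called with a positive interaction, against 2.87% of all genes.

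Several mitochondrial mRNAs fell without PE and rose with it. Mt-co1 fell by 0.46 ± 0.072 without PE and rose by 0.27 ± 0.072 with PE, Mt-nd1 had responses of -0.27 ± 0.061 and 0.44 ± 0.061, and Mt-nd6 of -0.53 ± 0.086 and 0.34 ± 0.086. Mean levels of Mt-co1 were 17487 FPKM in NC, 12701 FPKM in ES10, 6931 FPKM in P and 8361 FPKM in P_ES10, and both groups with PE were below both groups without it. Mt-cytb had the same order, with an interaction of 0.71 ± 0.095. The interaction of Mt-co1 was not called without the filter on low values and was 0 under quantile normalization, which gives the most abundant gene of each library 1 common value, that of Mt-cytb was not called under quantile normalization, and the call of Mt-nd1 without PE was lost without NC replicate 2 or any 1 ES10 library. Negative interactions were called for Hoxb5, a homeobox factor, and Fhod1, a formin. Fhod1 fell by 0.46 ± 0.06 without PE and by 1.20 ± 0.06 with PE, and Hoxb5 was not called without PE (-0.13 ± 0.097) and differed by -0.92 ± 0.092 with PE.

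**Figure D5:**
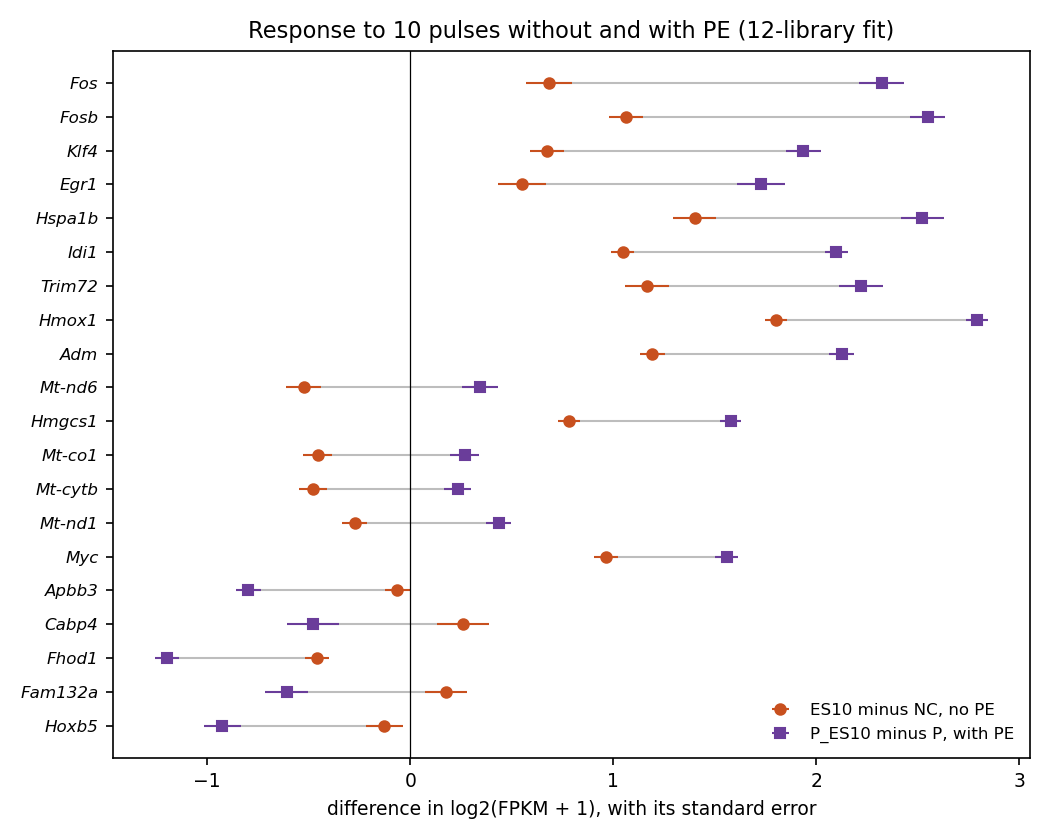
Difference in log2(FPKM + 1) with its standard error in response to 10 pulses without PE (circles, ES10 minus NC) and with PE (squares, P_ES10 minus P) for 20 genes, from the fit of 12 libraries, ordered by the interaction. The 4 mitochondrial mRNAs lie left of 0 without PE and right of 0 with PE, and Fos moves from 0.68 to 2.32.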

How the data were processed

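RNA from 18 libraries of H9C2 cells, 3 in each of 6 groups, was sequenced, and the authors deposited 1 table of FPKM for 32545 genes with gene lengths. The genome build was Rnor 6.0, per the submitters' processing notes. The aligner, the counting program, the annotation release, the strandedness, the time from pulses to harvest and the meaning of PE were not given in the sources used here. Multiplying the deposited FPKM by gene length gave whole multiples of 1 value for 100% of entries (tolerance 0.01 reads), from which the reads were recovered. These served for library sizes and for limma-voom as an alternative to the main test.

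Genes that reached an FPKM of 1 in 3 or more fitted libraries were tested with limma 3.58.1 in R 4.3.3 on log2(FPKM + 1), with a mean-variance trend and Benjamini-Hochberg adjustment over all tested genes. Differences are on that scale, which understates the change of low genes. ES10 and NC were fitted alone, and the interaction with PE in a fit of 12 libraries. The script was tested on simulated data, whose spread was set and not taken from these libraries. It recovered 8.16% of 1.3-fold, 44.9% of 1.5-fold and 94% of 2-fold changes and called 0.138% of unchanged genes. A gene that was not called is therefore not shown to be unchanged. The mitochondrial share was compared by an exact permutation test. Named genes are the 20 largest increases and decreases among genes with a proper symbol, the 8 list members with the lowest adjusted p in each list, the 8 largest changes in each direction at 100 FPKM or more, the 5 largest interactions in each direction and a fixed set of 20 genes, and some of these are not reported here. Among these, the text prefers genes called in all 17 alternatives. Hsf1, Hspb1, Klf2, Nfe2l2, Sf1, Mt-nd1, Mt-nd2 and Mt-nd3 were named after their values were seen. The comparison, the gene lists and the motifs were chosen with earlier results of these data known. Alternatives were other pseudocounts and filters, other scalings, fits of 12 or 18 libraries, a replicate block and leaving out each library.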

Additional observations from a re-analysis of the deposited data

Results flagged for a closer look

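The response to 10 pulses differed with PE for 20 named genes by the interaction term of limma in the fit of 12 libraries, (P_ES10 minus P) minus (ES10 minus NC). It was 1.64 for Fos, 1.48 for Fosb, 1.26 for Klf4, 1.18 for Egr1 and 0.59 for Myc among the immediate early genes. It was 0.99 for Hmox1, 1.12 for Hspa1b, 0.93 for Adm, 1.05 for Trim72, 1.05 for Idi1 and 0.80 for Hmgcs1. Among the mitochondrial mRNAs it was 0.87 for Mt-nd6, 0.72 for Mt-co1, 0.71 for Mt-cytb and 0.71 for Mt-nd1. Negative values were -0.80 for Hoxb5, -0.78 for Fam132a, -0.74 for Fhod1, -0.74 for Cabp4 and -0.73 for Apbb3. In the fit of all 18 libraries the calls of Klf4, Hspa1b, Hoxb5, Trim72, Myc and Cabp4 were lost, at adjusted p of 0.0659, 0.0575, 0.219, 0.296, 0.427 and 0.263 (limma). Cabp4 also lost its call without the filter on low values and in 10 of the 12 fits that left out 1 library.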

How the results depend on the processing

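Of 2334 genes called between ES10 and NC, 752 (580 higher and 172 lower) were called in the same direction in all 17 alternatives. Counts moved by over 1.5 times in the fit of all 18 libraries (1021 called, 758 higher and 263 lower), whose 50-pulse libraries without PE held 91.4% to 92.9% mitochondrial reads. The same fit called 108 interactions, 67 higher and 41 lower. Scaling to nuclear reads called 919 higher and 1781 lower. Without the filter 481 were called lower, by limma-voom 1345, and scaling to total reads called 739 lower interactions. Leaving out 1 library gave 1466 to 1732 calls, 1028 to 1234 higher and 438 to 498 lower, and 448 to 640 interactions, 220 to 298 higher and 228 to 342 lower. The cause was not tested, other than that fewer libraries were fitted.

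Of the called genes 5 higher and 2 lower changed sign in an alternative. Signs also turned for genes that were not called. Tfam was at -0.0308 with total reads, -0.0855 with nuclear reads, -0.0398 with quantiles and -0.0277 with limma-voom, and between -0.0398 and 0.0378 when 1 library was left out. Tnnt2 was at -0.0127, -0.0671, -0.0131 and -0.0225 in the same order and between -0.0808 and 0.0883 when 1 library was left out. Mt-nd3 was at 0.018 with quantiles, and the interaction of Mt-co1 was 0 there.

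Replicate numbers do not pair the samples by the labels. Deviations of same-numbered NC and ES10 libraries correlated at 0.135, 0.051 and 0.129, and each library correlated best with its own number, which is a hint from the data. With the replicate block 1809 genes were called, 1261 higher and 548 lower, and 596 interactions. Depth limits genes under a few FPKM, where 1 gene such as Uchl3 rests on 0 to 9 reads in NC.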
